A study of Mus musculus with 10 samples.

Results

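The genes described here are 8 members of the CREB pathway, Creb1, Crem, Atf1, Crtc1, Crtc2, Sik1, Sik2 and Per1, taken by symbol from the deposited matrix of 45195 genes. They comprise the CREB family of transcription factors, 2 of their coactivators, the kinases that hold those coactivators back and a clock gene that CREB induces. All 8 passed the filter on low values, which asked for 1 or more in 2 or more libraries and left 15712 genes to test. The rule is a list of symbols and uses no measured value, but the list was chosen with earlier results of these data known. Counts of members called are therefore no independent support.

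RNA was sequenced from neurites of C57BL/6 mouse cortical neurons, taken from E16.5 embryos and grown on membranes with 3 µm pores through which neurites, but not cell bodies, can pass. The groups were injured Cpeb1 knockout neurites (2 libraries), naive Cpeb1 knockout neurites (2 libraries), injured wild-type neurites (3 libraries) and naive wild-type neurites (3 libraries). Knockout neurons carried Cpeb1 flox/flox alleles. Every culture, wild type included, had received an adeno-associated virus (AAV2) carrying Cre under the ubiquitous CAG promoter at plating, so the virus and Cre were shared by all groups. Injured neurites had been scraped from the lower side of the membrane on day 7 and what was there 24 h later was lysed on day 8. Naive neurites were lysed on day 8 without scraping. Cell bodies were swabbed from the upper side before lysis. Injured samples therefore held the neurites present 24 h after scraping, and injury and neurite age cannot be told apart. The labels do not say that libraries of a group came from separate cultures, so the p-values measure the spread between libraries, which may be technical.

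CREB1 and its relatives CREM and ATF1 are bZIP transcription factors that bind cAMP response elements. Phosphorylation by protein kinase A and by calcium-dependent and growth factor-dependent kinases lets CREB recruit the acetyltransferases CBP and p300, while CRTC coactivators, once dephosphorylated by calcineurin, enter the nucleus and bind the CREB bZIP domain. Salt-inducible kinases phosphorylate the CRTC proteins and keep them in the cytoplasm. Sik1, Per1 and the short repressor form of Crem named ICER are themselves induced by CREB, which makes Sik1 and ICER negative feedback arms of the pathway. In neurons the pathway is known for coupling activity, neurotrophins and axonal injury to transcription. CPEB1, the protein removed in the knockout, binds cytoplasmic polyadenylation elements in 3' untranslated regions and regulates poly(A) tails and translation of the mRNAs that carry them.

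Depth was estimated at 21400000 to 27700000 fragments per library. Cpeb1, the targeted gene, had 1.14 and 3.15 in injured knockout neurites and 5.97 and 0.356 in naive knockout neurites, against 1.65, 13.8 and 22.6 in injured and 7.16, 5.96 and 5.86 in naive wild-type neurites. The library labelled naive knockout 1 thus lay within the wild-type naive range, and the library labelled injured wild type 1 lay within the injured knockout range. Which exons were deleted is not given in the sources used here, so reads outside the deleted part would not report the deletion. The third injured wild-type library stood apart, with a mean correlation to the others of 0.839 (the other 9 lay between 0.867 and 0.898), the fewest genes at or above 1 (12231) and 28.2% of its summed value in genes annotated as ribosomal RNA. The 6 neuronal markers summed to at least 2060 in every library. Astrocyte markers summed to between 380 and 1410 and the 6 oligodendrocyte lineage markers to between 114 and 405. The 6 microglia markers summed to at most 7.14 in any library. Of the microglia markers, Cx3cr1 and Tmem119 were below 1 in all 10. Csf1r, P2ry12, Aif1 and C1qa reached 1 or more in some libraries. Values are length-normalized expression values, taken as FPKM divided by a TMM factor. They are compared between genes on that scale only, and a log2 difference is always of log2(value + 1).

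In naive wild-type neurites the coactivator Crtc1 and the factor Crem were the most abundant of the 8 transcripts and the feedback kinase Sik1 the least. Mean values there were 24.3 ± 3.03 for Crtc1, 18.1 ± 5.16 for Crem, 11.7 ± 2.97 for Sik2, 11.6 ± 1.66 for Per1, 9.0 ± 4.74 for Atf1, 8.61 ± 6.58 for Creb1, 5.14 ± 1.71 for Crtc2 and 2.35 ± 0.398 for Sik1 (SD, n = 3). The ranges of Crtc1 and Crem overlapped, although Crtc1 was higher within each library. The ranges of each pair of neighbours in the order from Sik2 to Crtc2 overlapped too, whereas Crem lay above Sik2 and Crtc2 above Sik1 in every library. In injured wild-type neurites the order differed, with Crem first at 112 ± 58.3, then Per1 at 31.3 ± 16.4, Sik1 at 22.2 ± 8.69, Crtc2 at 21.9 ± 19.9, Sik2 at 19.7 ± 11.2, Atf1 at 13.9 ± 4.27, Crtc1 at 11.2 ± 11.4 and Creb1 at 8.08 ± 7.32 (SD, n = 3). The range of each overlapped with that of its neighbour, although within each library Crem was above Per1 and Per1 above Sik1. Knockout neurites had Crem and Crtc1 in the first places both after injury (31.2 ± 23.7 and 16.46 ± 1.16) and in the naive state (35.9 ± 5.41 and 22.5 ± 4.58, SD, n = 2). At the estimated depth, the lowest value of Sik1 in any library rested on about 99 fragments and the lowest of Crem on about 1080, by the longest coding transcript. For Crem this is an upper estimate, because its coding transcripts go down to 436 bases and shorter ones would mean fewer fragments.

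**Figure D1:**
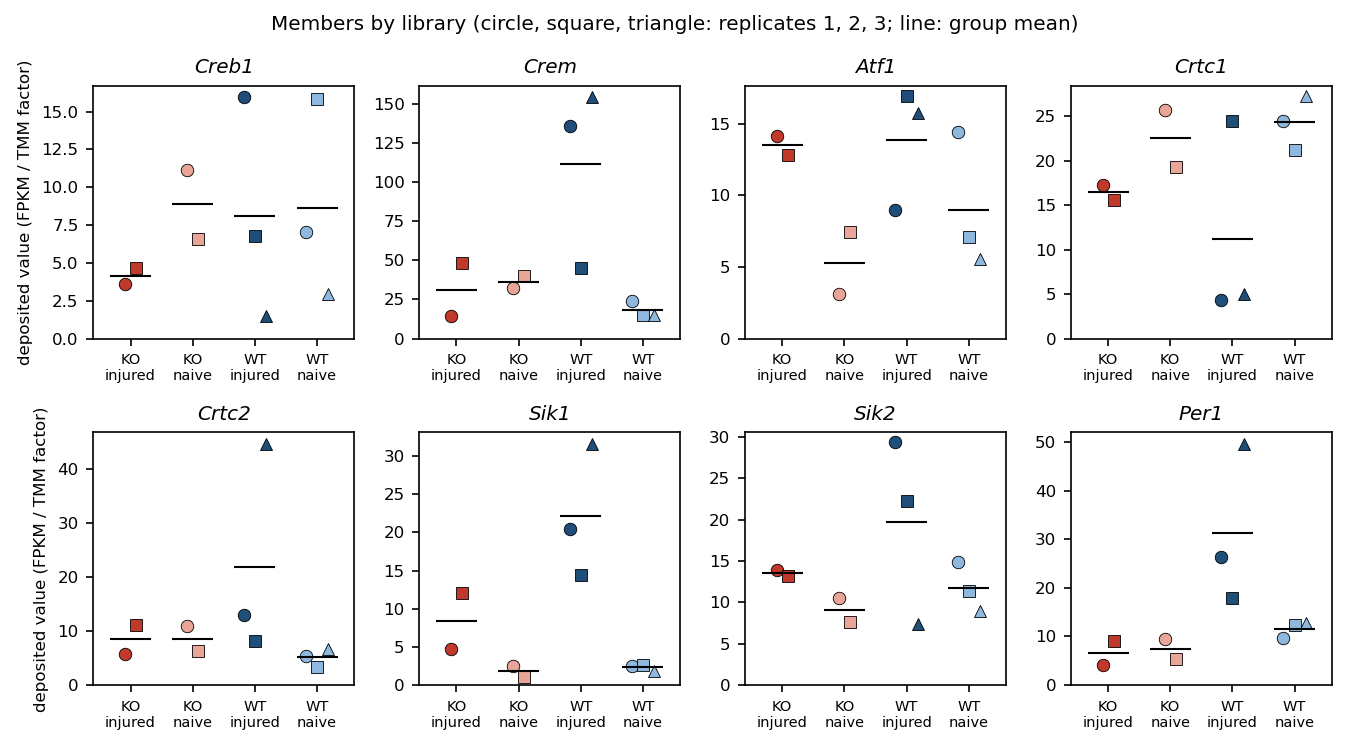
Each point is the value of 1 gene in 1 library (linear axis, length-normalized value), with 1 panel per gene and the groups injured knockout, naive knockout, injured wild type and naive wild type from left to right. Sik1 in the 3 injured wild-type libraries, between 14.5 and 31.6, sits above every other library, and Crem spreads from 45.4 to 154 there.

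In injured wild-type neurites 2 of the 8 transcripts, Sik1 and Crem, rose relative to naive neurites and none fell, where 0.948% of the 15712 genes tested were called and 0.7% were called as higher. The median log2 difference of the 8 was 0.94, against 0.009 over all genes tested, and 6 of the 8 lay above 0. In bulk neurite RNA, fewer cells or neurites of a type and less RNA in each cannot be told apart.

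Sik1, the salt-inducible kinase that phosphorylates CRTC proteins, had values of 20.4, 14.5 and 31.6 in injured wild-type neurites, against 2.54, 2.61 and 1.89 in naive wild-type neurites. The groups were far apart, the lowest injured library being above the highest naive one. The log2 difference was 2.73 ± 0.52 (SE, adjusted p = 0.0304 by limma), and each injured library was higher than the naive mean, by 2.68, 2.22 and 3.29 on the log2 scale. The related kinase gene Sik2, whose product phosphorylates CRTC2, had 29.4, 22.2 and 7.41 in injured and 14.9, 11.4 and 8.96 in naive wild-type neurites, with overlapping groups and a log2 difference of 0.53 ± 0.47 (adjusted p = 0.663). Within each library, the ratio of Sik1 to Sik2 was 0.693, 0.651 and 4.26 in injured and 0.171, 0.230 and 0.211 in naive wild-type neurites. Sik1 thus made up a larger part of the pair in every injured library, most of all in the third, where Sik2 was low. The adjusted p of Sik1 passed the threshold in 8 of 18 alternative settings and missed it without injured wild-type library 1 or 3 (0.0876 and 0.0867), without naive wild-type library 1, 2 or 3 (0.119, 0.116 and 0.119), and without naive knockout library 1 or 2 (0.0535 and 0.0501). Sik1 also missed the threshold without the filter on low values (0.0885) and in the fit of only the groups compared (0.101). Its log2 difference was above 0 in all alternative settings.

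Crem, which encodes both activators and the ICER repressors of the family, had 136, 45.4 and 154 in injured wild-type neurites, against 24.0, 15.0 and 15.2 in naive wild-type neurites. The injured libraries were all higher, and the second of them was the lowest. The log2 difference was 2.42 ± 0.48 (adjusted p = 0.0353). GENCODE lists 39 Crem transcripts of 290 to 2931 nt, 32 of them coding, and the gene value does not separate ICER from the longer forms. The call held in 6 of 18 alternative settings. It was missed without injured wild-type library 1 or 3 (0.122 and 0.105), without naive wild-type library 1, 2 or 3 (0.101, 0.169 and 0.141) and without naive knockout library 1 or 2 (0.0737 and 0.0733). Crem was also missed without the filter on low values (0.189), in the fit of only the groups compared (0.149) and with a pseudocount of 0.1 (0.0537). With the replicate number as a block its adjusted p stood at 0.0502. With the third injured wild-type and the first naive knockout library omitted together, neither Crem (0.202) nor Sik1 (0.138) was called.

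Values of other cell content moved beside these changes. Summed nuclear-retained RNAs reached 6030 to 7240 in injured and 2700 to 4100 in naive wild-type neurites, although only 2 of the 7 listed genes had a higher mean after injury. Summed astrocyte markers spanned 593 to 1410 in injured and 380 to 525 in naive wild-type neurites, with 6 of 7 genes higher. Oligodendrocyte lineage sums overlapped, at 161 to 405 in injured and 157 to 176 in naive wild-type neurites, with 3 of 6 genes higher. Summed interneuron markers spanned 51.8 to 87.5 in injured and 419 to 689 in naive wild-type neurites, with none of 7 higher. Summed neuronal markers were 2060 to 2780 in injured and 3280 to 3640 in naive wild-type neurites, with 1 of 6 genes higher. Genes annotated as ribosomal RNA held 19.9, 23.3 and 28.2% of the summed value in injured and 14.9, 11.1 and 16.4% in naive wild-type neurites, so these groups did not overlap either. The part of all these in the changes of Sik1 and Crem was not tested.

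Per1, a repressor of the circadian clock whose promoter responds to CREB, and the coactivator Crtc2 also had injured and naive libraries that did not overlap in wild type, without passing the test. Per1 had 26.3, 17.9 and 49.7 in injured and 9.68, 12.4 and 12.7 in naive wild-type neurites. The log2 difference of Per1 was 1.25 ± 0.45 (adjusted p = 0.248). Crtc2 had 12.9, 8.11 and 44.7 in injured and 5.38, 3.32 and 6.71 in naive wild-type neurites, a log2 difference of 1.59 ± 0.58 (adjusted p = 0.254) in which the third injured library was by far the highest. Injured libraries stood wholly above naive ones for 4 of the 8 members, Crem, Crtc2, Sik1 and Per1, and for 9.78% of all genes tested.

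Crtc1, the CRTC coactivator most abundant in brain, showed 2 levels among injured wild-type libraries, with 4.28, 24.4 and 4.95, against 24.5, 21.2 and 27.3 in naive wild-type neurites. The second injured library was within the naive range and the other two were far below it. The log2 difference was -1.44 ± 0.51 (adjusted p = 0.24), and without that second library it was -2.17 (adjusted p = 0.0125), which passed. Within each library the ratio of Crtc1 to Crtc2 was 0.33, 3.01 and 0.11 in injured and 4.55, 6.39 and 4.06 in naive wild-type neurites, so the lowest naive ratio was above the highest injured one. Injured wild-type library 2 was also the one with the smallest departure from the naive mean for Sik1, Crem, Per1 and Crtc2.

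The constitutive factors showed no call. Creb1 had 15.97, 6.78 and 1.503 in injured and 7.07, 15.8 and 2.93 in naive wild-type neurites, with a log2 difference of -0.23 ± 0.71 (adjusted p = 0.926). Atf1, which dimerizes with CREB1, had 9.004, 16.9 and 15.7 in injured and 14.4, 7.08 and 5.53 in naive wild-type neurites, with a log2 difference of 0.63 ± 0.47 (adjusted p = 0.603). Both pairs of groups overlapped. Creb1 varied more between libraries of a group than most genes of like level, with a within-group SD of 1.03 on the log2 scale, against a median of 0.69. Crem also exceeded its like (0.77 against 0.39), whereas Sik1 lay below (0.52 against 0.72).

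**Figure D2:**
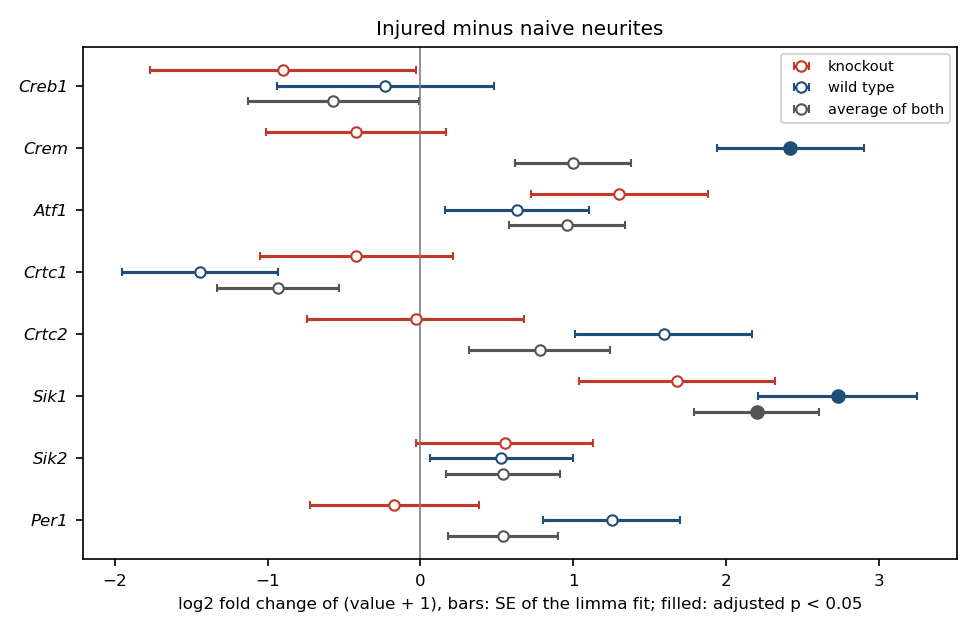
Log2 difference of log2(value + 1), injured minus naive, for each of the 8 genes, with bars of 1 SE from limma, in knockout neurites, in wild-type neurites and averaged over both, and filled points where the adjusted p is under 0.05. Sik1 lies above 0 in each, at 1.68, 2.73 and 2.20, and Crem at -0.42, 2.42 and 1.00.

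In knockout neurites none of the 8 members was called for injury by limma, with 2 at an unadjusted p under 0.05, where 0.0573% of all genes tested were called and 5.73% had such a p. With 2 libraries a group the comparison was less precise than in wild type. Sik1 had 4.74 and 12.1 in injured and 2.52 and 1.08 in naive knockout neurites, and the 2 groups did not overlap. Its log2 difference was 1.68 ± 0.64 (adjusted p = 0.795). Crem had 14.4 and 48.0 in injured and 32.0 and 39.7 in naive knockout neurites, with the injured libraries on either side of the naive ones and a log2 difference of -0.42 ± 0.59 (adjusted p = 0.989). Per1 had 4.2 and 9.07 in injured and 9.44 and 5.32 in naive knockout neurites, a log2 difference of -0.17 ± 0.55 (adjusted p = 1). Atf1 had 14.2 and 12.8 in injured and 3.08 and 7.45 in naive knockout neurites, with a log2 difference of 1.30 ± 0.58 (adjusted p = 0.861). Summed interneuron markers were 59.8 to 104 in injured and 471 to 820 in naive knockout neurites. Astrocyte markers were 714 to 794 in injured and 466 to 547 in naive ones. Oligodendrocyte lineage markers were 234 to 239 in injured and 114 to 206 in naive ones, with 3 of 6 genes higher. Neuronal markers were 2870 to 3920 in injured and 3820 to 4230 in naive ones. The part of all these markers was not tested.

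Sik2 had 13.9 and 13.2 in injured and 10.5 and 7.60 in naive knockout neurites (log2 difference 0.55 ± 0.58), and Creb1 had 3.61 and 4.69 in injured and 11.1 and 6.58 in naive ones (-0.90 ± 0.87). Crtc1 had 17.3 and 15.6 in injured and 25.8 and 19.3 in naive knockout neurites (-0.42 ± 0.63), and Crtc2 had 5.82 and 11.1 in injured and 10.9 and 6.27 in naive ones (-0.03 ± 0.71). Injured libraries stood wholly above naive ones for Atf1, Sik1 and Sik2 and wholly below for Creb1 and Crtc1, that is 3 and 2 of the 8. Over all genes tested these shares were 13.5% and 22.1%. Sik1 was the 1 member of the 8 with every injured library above every naive one in both genotypes, as were 2.18% of all genes tested.

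Averaged over both genotypes, Sik1 was the 1 member of the 8 that passed, where 0.566% of all genes tested were called and 0.286% were called as higher. Its log2 difference was 2.20 ± 0.41 (adjusted p = 0.0309), and it was higher than the naive mean of its genotype in 5 of 5 injured libraries. The call was missed without injured wild-type library 1 (0.0729), any naive wild-type library (0.0790 to 0.0876), injured knockout library 2 (0.215) or naive knockout library 1 or 2 (0.0845 and 0.202), and stood at 0.0523 with the replicate block. Crem at 1.00 ± 0.38 (adjusted p = 0.329), Atf1 at 0.96 ± 0.38 (0.344) and Crtc1 at -0.93 ± 0.40 (0.407, and 0.041 without injured wild-type library 2) did not pass.

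Between genotypes after injury no member passed, with 3 at an unadjusted p under 0.05, where 0.261% of all genes tested were called and 10.5% had such a p. The lowest unadjusted p belonged to Per1. It had 4.2 and 9.07 in injured knockout neurites, against 26.3, 17.9 and 49.7 in injured wild-type neurites, so that the lowest wild-type library was above the highest knockout one. The log2 difference was -2.04 ± 0.50 (adjusted p = 0.175). Sik1 did not overlap either, with 4.74 and 12.1 in injured knockout and 20.4, 14.5 and 31.6 in injured wild-type neurites and a log2 difference of -1.35 ± 0.58 (adjusted p = 0.441). Crem had 14.4 and 48.0 in injured knockout and 136, 45.4 and 154 in injured wild-type neurites, where the second knockout library was above the second wild-type one, and a log2 difference of -1.86 ± 0.54 (adjusted p = 0.257). Knockout libraries lay wholly below wild type for these 2 members, Sik1 and Per1, and for 12.2% of all genes tested.

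The other members differed less between injured groups. Crtc2 gave -0.98 ± 0.65 (adjusted p = 0.63), Crtc1 0.91 ± 0.57 (0.611), Creb1 and Sik2 lay at -0.43 and -0.31, and Atf1 at 0.00. The median of the 8 log2 differences was -0.70, against -0.049 over all genes tested. Nuclear-retained RNA sums were 1760 to 2940 in injured knockout and 6030 to 7240 in injured wild-type neurites. Most of each sum was Malat1, with 1236 and 2424 in injured knockout and 6633, 5818 and 5513 in injured wild-type neurites. Of the other listed RNAs, Xist was higher in both injured knockout libraries and the rest overlapped. Astrocyte sums were 714 to 794 in injured knockout and 593 to 1410 in injured wild-type neurites. Neuronal marker sums were 2870 to 3920 in injured knockout and 2060 to 2780 in injured wild-type neurites, and ribosomal RNA shares were 12.1 and 15.1% in injured knockout and 19.9, 23.3 and 28.2% in injured wild-type neurites. Their part in these differences was not tested.

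Between genotypes in naive neurites no member passed and none had an unadjusted p under 0.05, while 0.146% of all genes tested were called and 3.76% had such a p. Crem was higher in both naive knockout libraries, with 32.0 and 39.7, against 24.0, 15.0 and 15.2 in naive wild-type neurites (log2 difference 0.98 ± 0.54, adjusted p = 1). Per1 was lower in both naive knockout libraries, with 9.44 and 5.32, against 9.68, 12.4 and 12.7 in naive wild-type neurites (-0.62 ± 0.50, adjusted p = 1). The first knockout value of Per1 is close to the lowest wild-type one. Over all genes tested, 14.1% had knockout libraries wholly above and 8.51% wholly below wild type. Averaged over naive and injured neurites, Per1 gave -1.33 ± 0.36 (adjusted p = 0.339) and Sik1 -0.83 (0.664), with no member called and 1 at an unadjusted p under 0.05, where 0.204% of all genes tested were called and 7.68% had such a p.

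Whether the injury difference itself depended on genotype was tested by the interaction, the injury difference in knockout minus that in wild-type neurites. No member and no other gene passed in limma (0.0% of those tested), while 979 of all genes (6.23%) and 1 of the members, Crem, had an unadjusted p under 0.05. Crem gave -2.83 ± 0.76 (unadjusted p = 0.00267, adjusted p = 0.724), Crtc2 -1.62 ± 0.92 (0.807), Per1 -1.41 ± 0.71 (0.804) and Sik1 -1.05 ± 0.82 (0.853). Relative to the naive mean of the genotype, Crem stood at -1.25 and 0.42 in the injured knockout libraries and at 2.87, 1.31 and 3.06 in the injured wild-type libraries. The calls of Crem and Sik1 in wild type and not in knockout neurites are therefore no shown difference between genotypes.

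**Figure D3:**
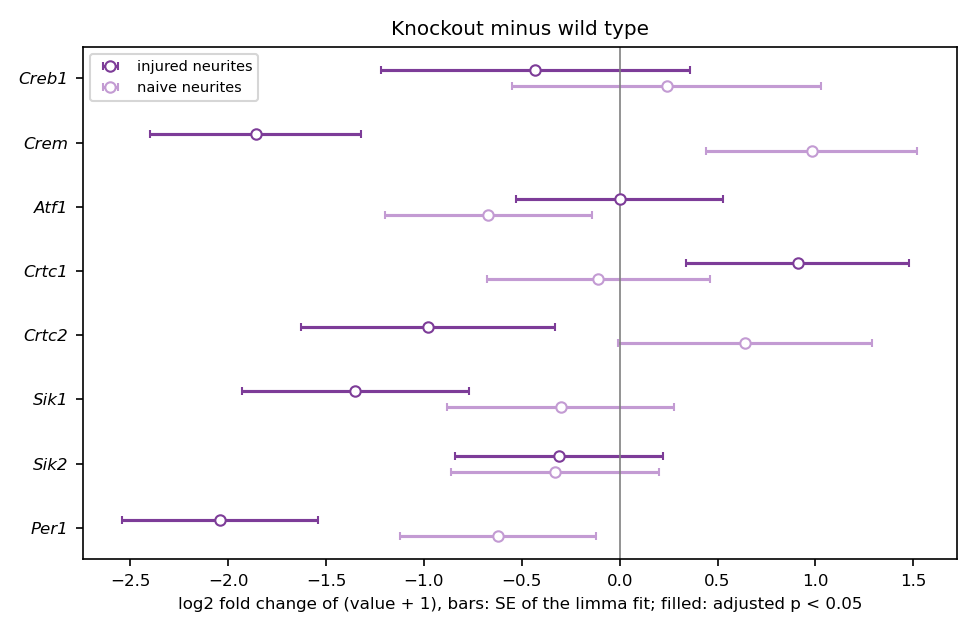
Log2 difference, knockout minus wild type, for each of the 8 genes in injured and in naive neurites, with bars of 1 SE from limma. Per1 lies at -2.04 in injured and -0.62 in naive neurites, and Crem at -1.86 and 0.98, while Atf1 is at 0.00 in injured neurites.

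CPEB1 binding elements bear on the genotype comparison because they mark the mRNAs the missing protein could bind. The letters TTTTAT or TTTTAAT were searched on the mRNA strand of the longest annotated 3' untranslated region of each member. Creb1 held 7 matches, Atf1 6, Crtc1 3, Crem, Sik1 and Sik2 2 each, Crtc2 1 and Per1 none. Thus 7 of the 8 members held at least 1, against 63.0% of the 13120 tested genes with such a region. Of the members' regions 6 were longer than the median of 1210 bases over those genes, at 7170 bases in Creb1, 3769 in Crtc1, 2524 in Sik2, 2033 in Sik1, 1629 in Crem and 1285 in Atf1. Those of Per1 (803) and Crtc2 (425) were shorter, and longer regions can hold more matches. The last match of each region is shown in capitals within 30 bases of mm10 sequence for 6 members, because its distance to the end of the region is part of how such elements are read. It lay 1774 bases before that end in Creb1, 139 in Atf1, 754 in Crtc1, 41 in Crtc2, 49 in Sik1 and 867 in Sik2.
Creb1: agacaccatgcaTTTTATtaacactatgta
Atf1: ttttatataaagTTTTATctaaagtttcag
Crtc1: gtacctggtcctTTTTATaccccttccacc
Crtc2: atggatattattTTTTATtaaatatattat
Sik1: ttgatgtattttTTTTAATttaatatttaa
Sik2: aatttgtgtttcTTTTATtcattctattcc

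A match is a description of the letters and not of binding, and whether matches go with the genotype differences was not tested.

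Promoter windows from 250 bases before to 50 bases after each annotated start were matched in RefSeq (GRCm38.p6) for Atf1, Creb1, Crtc1, Sik2 and Per1, the last with 2 starts. Crem, Crtc2 and Sik1 had no entry in the set of windows used here, so their promoters were not searched. The full cAMP response element TGACGTCA was in none of the 6 windows and in 1.79% of 32851 windows, counted on both strands. Its part TGACG, which also lies inside the full element, was found on either strand in both windows of Per1 and in those of Atf1 and Sik2, against 20.8% of windows. The E-box CACGTG, the letters bound by CLOCK and BMAL1, was in the first Per1 window and in that of Atf1, against 7.15% of windows. The Atf1 window, with TGACG 90 and CACGTG 105 bases before the start, is not shown. The Per1 windows at chr11:69098699-69098998 and chr11:69099902-69100201 (plus strand) are given as examples that hold TGACG. So is the Sik2 window at chr9:51009024-51009323 (minus strand, shown 5' to 3' along the gene). TGACG (its complement read as CGTCA) and the E-box are in capitals.
Per1 first start: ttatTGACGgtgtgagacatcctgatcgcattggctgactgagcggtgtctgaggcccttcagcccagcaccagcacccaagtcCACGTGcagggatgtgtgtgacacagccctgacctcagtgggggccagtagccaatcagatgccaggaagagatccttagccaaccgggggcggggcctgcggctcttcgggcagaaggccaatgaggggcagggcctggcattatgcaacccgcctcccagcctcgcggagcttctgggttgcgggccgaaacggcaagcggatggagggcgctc
Per1 second start: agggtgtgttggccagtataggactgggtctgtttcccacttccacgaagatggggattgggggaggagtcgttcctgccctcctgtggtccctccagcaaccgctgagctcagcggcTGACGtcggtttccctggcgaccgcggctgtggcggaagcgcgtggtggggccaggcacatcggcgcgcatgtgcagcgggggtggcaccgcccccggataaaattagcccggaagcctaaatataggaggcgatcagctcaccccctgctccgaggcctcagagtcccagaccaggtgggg
Sik2: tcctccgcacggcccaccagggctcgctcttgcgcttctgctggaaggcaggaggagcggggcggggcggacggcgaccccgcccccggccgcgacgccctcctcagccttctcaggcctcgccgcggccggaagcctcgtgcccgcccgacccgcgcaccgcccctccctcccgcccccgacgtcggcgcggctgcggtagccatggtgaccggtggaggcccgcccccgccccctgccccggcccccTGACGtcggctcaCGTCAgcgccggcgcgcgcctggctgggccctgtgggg

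In the Per1 windows TGACG began 246 and 132 bases before the start, and CACGTG 166 bases before the first. In the Sik2 window TGACG began 1 base before and CGTCA 13 bases after the start. The values of Per1 and Sik2 are per gene, so which Per1 start was used in these neurites was not measured.

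Genes whose values ran most like those of a member over the 10 libraries were sought among 7320 protein-coding genes at or above the median level, by Pearson correlation of log2(value + 1). Sik1 was most like Nr4a2, Ier2 and Gem (r = 0.990, 0.983 and 0.980, 10 libraries), 3 genes known to be induced early after stimulation. Nr4a2, an orphan nuclear receptor, had 40.9 and 90.6 in injured knockout and 18.3 and 10.5 in naive knockout neurites, and 166, 84.9 and 177 in injured and 18.4, 16.1 and 16.1 in naive wild-type neurites. As with Sik1, the second injured knockout library was at about the level of the second injured wild-type library, and both exceeded every naive one.

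Crem was most like Btg1 (0.960), Slc44a1 (0.949) and Hist1h2bc (0.935), and Per1 most like Eno1 (0.950), Idh2 (0.949) and Abhd2 (0.946), of which Eno1 and Idh2 encode metabolic enzymes. Crtc1 was most like Gpd1l (0.989), Lmo7 (0.961) and Trappc3 (0.951). Gpd1l had 9.35, 24.6 and 9.72 in injured and 25.4, 21.04 and 24.96 in naive wild-type neurites, the same split of injured libraries as in Crtc1. Crtc2 was most like Ftl1 (0.980), Rpl8 (0.973) and Ccnd2 (0.964), each highest in the third injured wild-type library. The remaining likenesses were lower, led by Acot8 for Atf1 (0.931), Tdrkh for Sik2 (0.909) and Tmem191c for Creb1 (0.908). All these correlations share the libraries and their injury groups and describe likeness of values only.

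**Figure D4:**
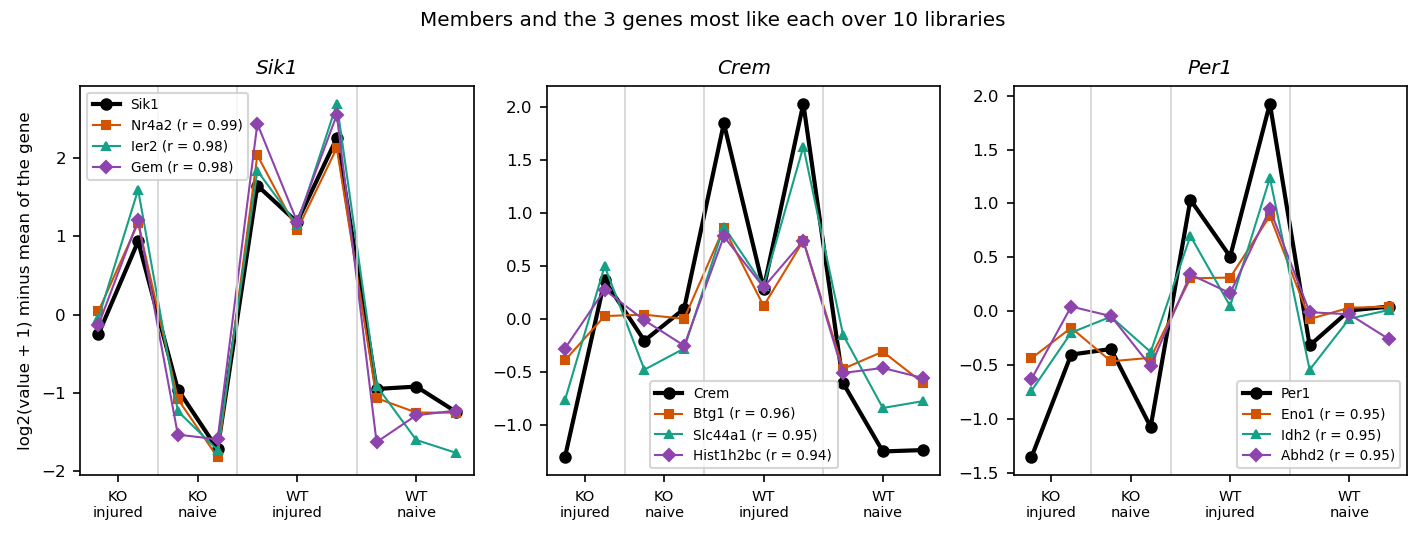
Log2(value + 1) relative to the mean over the 10 libraries for Sik1, Crem and Per1 and the 3 genes most like each, by library in the order injured knockout, naive knockout, injured wild type and naive wild type. Sik1, Nr4a2, Ier2 and Gem run together at r of 0.980 to 0.990.

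The rest of the pathway was described without a set test by 6 lists, also chosen with earlier results of these data known. Their counts are therefore no independent support either. CREB activity was not measured, so a rise of listed genes is no measure of it. Of 23 tested genes known to be induced through CREB in neurons, 13 rose in injured wild-type neurites and none fell, where 0.948% of all genes tested were called, with a median log2 difference of 2.51, against 0.009 over all genes tested. They included Nr4a1 (5.68 ± 0.38, adjusted p = 1.7e-05), Fos (6.91 ± 0.47), Junb (5.65 ± 0.45) and Npas4 (5.0 ± 0.54), early transcription factors of stimulated neurons. In knockout neurites 2 of the 23 rose, Nr4a1 at 3.19 ± 0.46 (adjusted p = 0.0322) and Junb at 3.5 ± 0.55 (0.0475), where 0.0573% of all genes were called, with a median of 1.03, against -0.087 over all genes tested. Both knockout calls were lost on leaving out any 1 library except the third injured wild-type library, with adjusted p of 0.0517 to 0.516 for Nr4a1 and 0.0591 to 0.830 for Junb. For the interaction none of the 23 was called by limma, with a median of -1.22, against -0.127 over all genes tested. An unadjusted p under 0.05 was found for 9 of the 23 and for 6.23% of all genes tested. The 13 and 2 calls are therefore no shown difference between genotypes. In naive neurites Fos had 10.9 and 17.4 in knockout and 2.11, 1.23 and 4.34 in wild type (2.15 ± 0.53, adjusted p = 0.47). There 11 of the 23 were lower in knockout. Between injured genotypes 1 of the 23, the secretogranin gene Scg2, was lower in knockout neurites, where 0.261% of all genes were called, and the median was -1.28. Scg2 had 55.5 and 93.8 in knockout and 188, 203 and 196 in wild-type neurites (-1.42 ± 0.26, adjusted p = 0.0417). That call was lost on leaving out any 1 library except injured knockout library 2 (0.0615 to 0.367).

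In the other lists the calls were 0 or 1 gene per list and comparison, where 0.948% of all genes were called for injury in wild type and 0.566% for the average. Counts this small cannot show whether a list differs from all genes. Among 29 tested genes of cAMP and protein kinase A signalling, Pkig, an inhibitor of protein kinase A, fell in injured wild-type neurites, with 37.0, 39.2 and 47.5 in injured and 82.3, 78.9 and 88.7 in naive libraries (-1.0 ± 0.20, adjusted p = 0.0405, and 0.0513 to 0.157 on leaving out any 1 library except the third injured wild-type library). Among 24 CREB kinases and phosphatases, Camk2a fell when injury was averaged over genotypes (-1.53 ± 0.24, adjusted p = 0.0118, and 0.0612 to 0.121 on leaving out any 1 knockout library). With all libraries, no gene was called in any comparison among the 12 bZIP relatives, the 21 other coactivators and SIK pathway genes and the 21 clock genes. Of the SIK pathway genes, Ywhag, a 14-3-3 protein gene whose family binds phosphorylated CRTC, gave -0.70 ± 0.18 for injury of wild-type neurites (adjusted p = 0.103) and -0.68 ± 0.14 averaged over genotypes (0.0589), and passed without injured wild-type library 2 (0.046 and 0.0273), in wild type also with each library rescaled to 1 total (0.0338) and in the average with the TMM factor multiplied by the column total (0.0475). Stk11, the LKB1 kinase that activates SIKs, gave 1.27 ± 0.42 for injury of wild-type neurites (0.209). The clock output factors Nfil3 and Dbp gave 1.22 ± 0.28 (0.0592) and 2.15 ± 0.59 (0.133), and both passed without injured wild-type library 2 (0.0257 and 0.0256). The bZIP factor Atf5 gave 0.76 ± 0.30 (0.284). Between injured genotypes Sik3, the third kinase of the family, gave -2.06 ± 0.62 (adjusted p = 0.282).

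**Figure D5:**
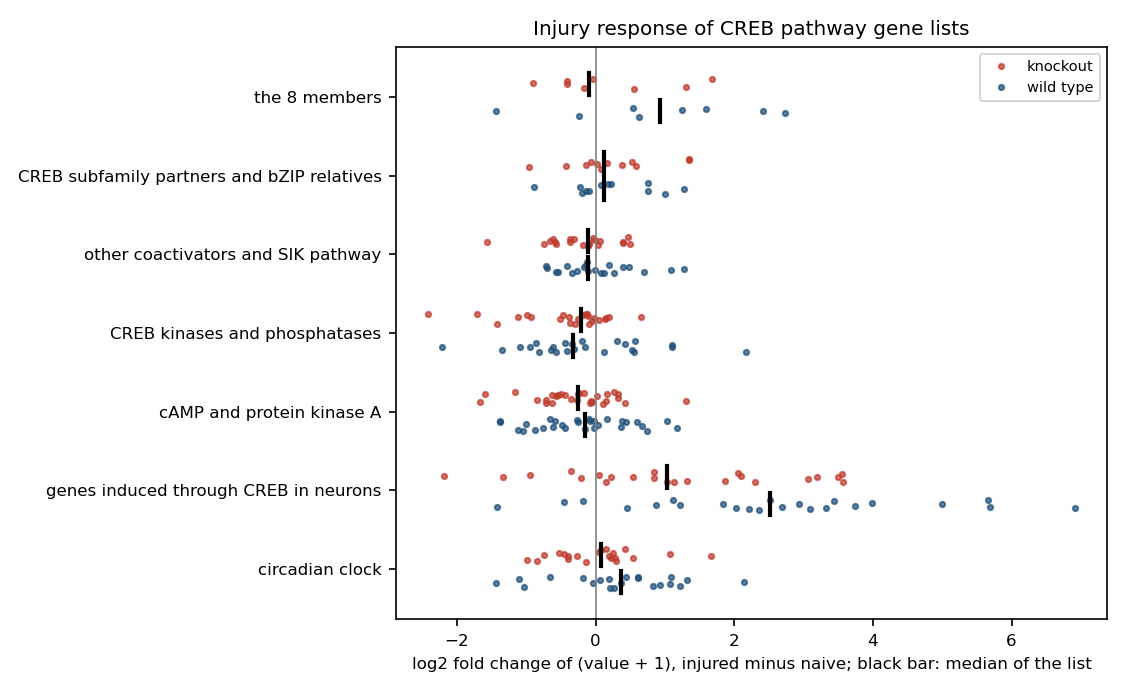
Log2 difference, injured minus naive, of each tested gene in the 6 pathway lists and of the 8 members, in knockout and in wild-type neurites, with a black bar at the median of each list. The list of genes induced through CREB has a median of 1.03 in knockout and 2.51 in wild-type neurites, and none of its genes was called for the interaction.

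On the mm10 assembly with GENCODE M21, Creb1 lies at chr1:64532645-64604548 (plus strand), Crem at chr18:3266048-3337748 (minus), Atf1 at chr15:100227819-100261244 (plus), Crtc1 at chr8:70382355-70439579 (minus), Crtc2 at chr3:90254163-90264125 (plus), Sik1 at chr17:31844250-31855804 (minus), Sik2 at chr9:50892801-51009073 (minus) and Per1 at chr11:69095217-69109960 (plus). Sik2 shares 1429 exonic bases, 14.98% of its exons, with Ppp2r1b on the opposite strand. The protocol does not mark strand, so reads of that stretch cannot be assigned by strand. Ppp2r1b had 15.4 and 21.7 in injured and 3.84 and 6.45 in naive knockout neurites, higher after injury as Sik2 was there. In wild type it had 7.11, 15.0 and 14.9 in injured and 9.81, 2.72 and 8.53 in naive neurites. The part of this overlap in the Sik2 values was not tested. Crem shares 472 exonic bases with Gm6225, which had at most 2.35 in any library. A processed copy of Atf1, 98.4% identical over 810 bases, was listed at 0 in all libraries. No such overlap was found for the other members.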

How the data were processed

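RNA of neurites was measured in 10 libraries of 4 groups, taken from the labels. Per the labels' protocols, Smart-seq2 with oligo(dT) priming started from 1 ng of RNA with 14 cycles, followed by Nextera XT on 500 pg of cDNA with 11 cycles, which does not mark strand. The submitters' processing notes name STAR 2.4.2a, RSEM 1.2.21 and the mm10 build. The values deposited by the authors were taken as FPKM, each library divided by its TMM factor. TPM could not be told apart, so the unit is an inference from the values, of which at least 99.993% per library were whole multiples of 0.01 over the factor. Counts were not used here, and depth and fragment numbers are estimates from the steps of genes with a single transcript. Gene names, coordinates and transcripts came from GENCODE M21, which matched 44548 of 45195 gene IDs. Promoter windows came from RefSeq.

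In R 4.3.3, limma 3.58.1 was fitted to log2(value + 1) with a mean-variance trend and 4 group means. It covered the 15712 genes that reached 1 in 2 or more libraries, and was tested on simulated data. Benjamini-Hochberg adjustment ran over all genes tested in a comparison, threshold 0.05. Each adjusted p in the text is from this fit, except where an alternative setting or a library left out is named. A log2 difference of log2(value + 1) understates the change of low genes. The members and the pathway and marker lists were chosen with earlier results of these data known. Named genes were the 8 members, Cpeb1, up to 4 genes that passed or 2 that did not per list and comparison described, and the 3 genes most like each member. Alternatives were another pseudocount (0.1), no filter, quantile normalization, rescaling to 1 total, the TMM factor multiplied by the column total, a fit of only the groups compared, a replicate block and leaving out libraries.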

Additional observations from a re-analysis of the deposited data

How the results depend on the processing

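The call of Sik1 for injury in wild-type neurites was kept in 8 of 18 alternatives and that of Crem in 6 of 18. That of Sik1 averaged over genotypes was kept in 7 of 17. These log2 differences kept their sign in all of them. Leaving out libraries could not have turned it, because the injured libraries compared lay wholly above the naive ones of their genotype. Main counts of genes called were 149 for injury in wild type, 9 for injury in knockout, 89 for the average, and 23, 41 and 32 for genotype in naive, in injured and over both, with 0 for the interaction. Without the filter on low values they were 25, 33, 52, 52, 44, 49 and 13 in the same order. In fits of only the groups compared they were 17 for injury in wild type, 0 for injury in knockout and 15 each for genotype in naive and injured neurites. A pseudocount of 0.1 gave 1 call for injury in knockout, quantile normalization 4, and the TMM factor multiplied by the column total 14. Omitting the third injured wild-type and first naive knockout libraries together, chosen after seeing the data like the TMM product, gave 18 calls for injury in wild type, 0 in knockout and 34 for the average. Leaving out 1 library each gave 35 to 306 calls for injury in wild type, 0 to 20 in knockout, 25 to 160 for the average, 15 to 26, 25 to 57 and 28 to 37 for genotype in naive, in injured and over both, and 0 to 2 for the interaction. Of the wild-type injury calls 73.8% were higher after injury, against 61.0% with quantile normalization, 41.1% with rescaling to 1 total, 59.8% with the TMM product, 48.0% without the filter and 63.5% with the other pseudocount. Rescaling to 1 total put the median of all genes at -0.22 for injury in wild type, 0.206 for genotype in injured neurites and 0.309 for the interaction. Same-numbered libraries did not deviate together (correlations of -0.048 to 0.041), so the replicate numbers were not taken as pairs. With the replicate block 5 genes were called for injury in knockout, and Creb1 gave -0.39 between naive genotypes, Atf1 -0.07 between injured genotypes and Crtc2 0.26 over both. The sign of Crtc2 for injury in knockout turned under quantile normalization (0.04), rescaling (0.20), the TMM product (0.02) and the joint omission (0.32), that of Per1 there under rescaling (0.06) and the joint omission (0.20), and that of Ywhaq between naive genotypes under quantile normalization (-0.08). The joint omission also gave Creb1 0.50 for injury in wild type and -0.10 between naive genotypes, and Sik2 -0.33 for the interaction. Signs that turned on leaving out 1 library were those of Creb1 (-0.88 to 0.50 for injury in wild type, -0.28 to 0.77, -1.16 to 0.22 and -0.46 to 0.23 for genotype in naive, in injured and over both), Crem (-1.25 to 0.42), Crtc2 (-0.45 to 0.38) and Per1 (-0.64 to 0.31) for injury in knockout, Crtc1 (-0.31 to 0.09) and Sik1 (-0.68 to 0.08) between naive genotypes, Atf1 (-0.26 to 0.16) and Sik2 (-0.87 to 0.06) between injured genotypes, Crtc2 over both (-0.41 to 0.17) and Sik2 for the interaction (-0.54 to 0.39). None of these was called. Where fewer libraries or more genes were tested the adjustment also differs, and the cause of the other shifts was not tested. With 2 or 3 libraries a group, and depth only estimated, no counting intervals are given.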
